A study of Lotus japonicus with 12 samples.

Results

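In the root nodules of Lotus japonicus, 56 rows of the deposited expression table carry the letters C or M in their identifiers and reached 1 FPKM or more in at least 3 of the 12 libraries. FPKM divide the fragments of a transcript by its length in kilobases and by the number of fragments in the library. Levels are thus scaled for length and are relative to the rest of each library. How RNA was selected before sequencing is not known here, which limits comparisons of C or M rows with other rows. Of 67 rows with identifiers beginning LotjaGiC, 33 met this threshold, and of 37 beginning LotjaGiM, 23 did. The whole table has 29531 rows, of which 22249 met the same threshold and were tested. In the other LotjaGi identifiers a number stands where these carry C or M, and the letters are read here as chloroplast (plastid) and mitochondrion from that naming pattern alone. None of the 56 identifiers matched a named gene, so neither the protein each row encodes nor its sequence is given, and rows are described by identifier. For the same reason the organelle reading could not be checked against known plastid or mitochondrial genes, nor the tissue against nodule markers.

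Plastids and mitochondria keep small genomes of their own, which encode parts of the photosynthetic and respiratory machinery and of the organelles' ribosomes, while most of their proteins are encoded in the nucleus. Neighbouring organelle genes are often transcribed together and then processed, and much of an organelle's RNA carries no stable poly(A) tail. Root nodules house nitrogen-fixing rhizobia and contain non-green plastids, and their infected cells respire heavily. Heme is made by a pathway that lies largely in plastids, and it serves as the cofactor of leghemoglobin and of respiratory cytochromes.

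The 4 groups were nodules of wild-type (WT) plants and of cpop1 mutants, named cpop1/hemf2 in the genotype labels, each at 10 and 21 days post inoculation (dpi), with 3 libraries per group. All plants had been inoculated with Mesorhizobium loti MAFF 303099, and the series title names CPOP1 as a heme synthesis enzyme. The series' design text calls the nodules young at 10 dpi and mature at 21 dpi. The labels give neither the mutant allele nor the plants or pots behind each library, so the replicate spread in every test may be technical in part or in full. The samples are whole nodules, in which fewer organelles or cells and less RNA per cell cannot be told apart.

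Total FPKM per library ranged from 985272 to 1224719, and between 18486 and 20623 rows reached 1 FPKM. WT 10 dpi replicate 3 stood apart from its group: the lowest correlation between WT 10 dpi libraries over tested rows was 0.839, against 0.968 or more within each of the other groups. That library lay nearer to the cpop1 10 dpi mean than to the mean of WT replicates 1 and 2 in 72.5% of tested rows, and in 18 of 33 C rows (54.5%) and 14 of 23 M rows (60.9%). Its genotype label could not be checked, because no identifier was matched to the mutated gene, and every WT 10 dpi mean rests on it in part. In the C and M rows other libraries also stood out. WT 21 dpi replicate 3 was the highest of its group in 22 of 23 M rows (95.7%) and in 24 of 33 C rows (72.7%), against 39.1% of tested rows. Of the cpop1 libraries, 21 dpi replicate 1 was the lowest of its group in 17 of 23 M rows (73.9%), against 30.6% of tested rows. At 10 dpi, cpop1 replicate 3 was the lowest of its group in 20 C rows (60.6%) and 15 M rows (65.2%), against 33.9%, and cpop1 replicate 1 the highest in 23 C rows (69.7%), against 33.7%. The part of these libraries in each result was not tested, and calls that were lost without 1 library are named below with that library.

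**Figure D1:**
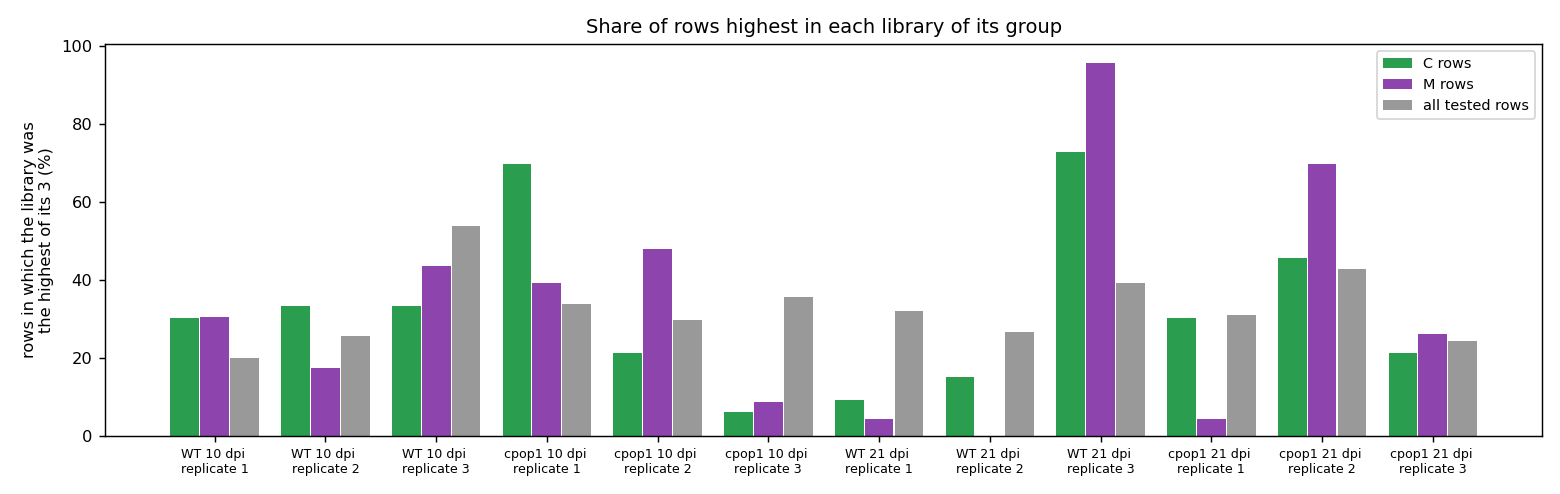
Share of C rows (33), M rows (23) and all tested rows (22249) in which each library had the highest FPKM of the 3 libraries of its group, in percent, with 1 set of bars per library. WT 21 dpi replicate 3 was highest in 95.7% of M rows and 72.7% of C rows, against 39.1% of tested rows.

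Both letters were dominated by a few abundant rows. The mean over 12 libraries was at least 5 FPKM for 3 C rows and 3 M rows, and below 5 FPKM for the other 50 (89.3%), against 35.8% of all tested rows. The median of the row means was 1.48 FPKM for C, 1.41 FPKM for M and 9.63 FPKM for all tested rows. How RNA was selected and how reads matching several places were treated is not known here. This gap is therefore read as a difference in listed FPKM only, not in RNA of the nodules. LotjaGiM1v0003900 and LotjaGiM1v0004400 together held between 86.2% and 96.1% of the summed M FPKM in every library. LotjaGiC1v0006500, LotjaGiC1v0006400 and LotjaGiC1v0012100 held between 62.6% and 74.8% of the summed C FPKM. A value of 0 occurred in at least 1 library for 7 C rows and 6 M rows, while 9 C rows and 4 M rows reached 1 FPKM in every library.

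At the threshold itself, the rows just inside among C were LotjaGiC1v0005300 and LotjaGiC1v0004200, each at 1.04 FPKM in the library where it was the third highest, and just outside was LotjaGiC1v0003900 at 0.95 FPKM. Among M, LotjaGiM1v0005100 was just inside at 1.06 FPKM and LotjaGiM1v0003700 just outside at 0.87 FPKM. In all, 34 C rows and 14 M rows stayed below. Some members met the threshold through the libraries of 1 age or genotype alone, so that the choice of members favours a difference there: LotjaGiC1v0012900 did so only at 10 dpi, and 1 C row and 6 M rows only at 21 dpi. Of the called rows these are LotjaGiC1v0004200, LotjaGiM1v0002900, LotjaGiM1v0003300 and LotjaGiM1v0005100. For cpop1 libraries alone this held for 2 C rows, LotjaGiC1v0004200 and LotjaGiC1v0003800. Differences of these rows in those directions are given as descriptions, without a p. Counts of called and of non-overlapping rows below are also given without them, or these rows are named beside the count. Counts from alternative fits include them unless stated. A pair of identifiers occurred on more than 1 row of the table. Both rows of LotjaGiC1v0006800 are members, and here they are called row A (the higher) and row B. LotjaGiM1v0000600 has 1 member row and a row below the threshold.

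Summed over the 33 rows, C transcripts differed between groups by less than the spread between libraries. The 3 WT libraries at 10 dpi had 156.46, 175.28 and 162.32 FPKM, a mean of 165 ± 9.63 (SD, n = 3). The cpop1 libraries at 10 dpi had 229.16, 195.19 and 160.5 FPKM, a mean of 195 ± 34.3. At 21 dpi the WT libraries had 111.43, 114.57 and 184.25 FPKM (137 ± 41.2) and the cpop1 libraries 179.15, 181.46 and 154.09 FPKM (172 ± 15.2). The genotypes overlapped at both ages, and at 21 dpi they did so through WT replicate 3, which was the highest of all 6 libraries. The log2 ratio of group means, cpop1 over WT, was 0.24 at 10 dpi and 0.33 at 21 dpi, against spreads between libraries of 0.27 and 0.43 on the same scale. No test was run on sums, and 3 against 3 libraries could not go below p = 0.1 in an exact permutation test. Without WT 21 dpi replicate 3 the 21 dpi value was 0.60. With every library shifted to a common median the values were 0.15 at 10 dpi and 0.17 at 21 dpi. Scaled to the rows without C or M they were 0.19 and 0.20, and scaled without the 20 most abundant rows 0.20 and 0.42. Total FPKM at 21 dpi was 1186554 to 1224719 in the cpop1 libraries and 1089982 to 1107291 in the WT libraries.

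Summed over the 23 rows, M transcripts at 10 dpi were lower in the mutant, with no overlap between the libraries, and this sum is mostly its 2 most abundant rows. The WT libraries at 10 dpi had 625.06, 495.12 and 293.98 FPKM (471 ± 167, n = 3) and the cpop1 libraries 234.79, 267.45 and 208.28 FPKM (237 ± 29.6). The log2 ratio of group means was −0.99 against a spread between libraries of 0.59, and WT replicate 3 was the WT library nearest to cpop1. Without the 3 most abundant rows the order was the other way, with 22.1 ± 4.50 FPKM in WT and 26.1 ± 4.07 FPKM in cpop1, a difference within 1 SD of either group, and 15 of 23 M rows had a positive difference. The share of all tested rows with a positive difference is not given here. At 21 dpi the WT libraries had 489.58, 376.2 and 851.95 FPKM (573 ± 248) and the cpop1 libraries 263.53, 464.94 and 449.01 FPKM (392 ± 112). These overlapped, and the log2 ratio was −0.54 against a spread of 0.76. Without WT 21 dpi replicate 3, the highest of the 6, it was −0.14. With age, the log2 ratio of the summed M FPKM was 0.28 in WT (spread 0.82) and 0.73 in cpop1 (spread 0.49). The WT value changed sign to −0.12 without WT 21 dpi replicate 3.

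The ratio of the summed M to the summed C FPKM, which a common scaling of a library leaves as it is, separated the genotypes at both ages. It was 4.0, 2.82 and 1.81 in the WT libraries at 10 dpi (2.88 ± 1.09, n = 3) and 1.02, 1.37 and 1.30 in cpop1 (1.23 ± 0.182). At 21 dpi it was 4.39, 3.28 and 4.62 in WT (4.10 ± 0.717) and 1.47, 2.56 and 2.91 in cpop1 (2.32 ± 0.752). Every cpop1 library was below every WT library of its age. This ratio was added after the values had been seen and is a description with no test. Without the most abundant row of each letter the libraries still did not overlap, with 1.31 to 2.24 in WT and 0.711 to 1.01 in cpop1 at 10 dpi. At 21 dpi the ranges without those rows were 1.85 to 2.45 and 0.955 to 1.80. Without the 2 most abundant M rows and the 3 most abundant C rows the genotypes overlapped: the mean ratio was then 0.594 in WT and 0.613 in cpop1 at 10 dpi, and 1.05 and 0.825 at 21 dpi. At 21 dpi only WT replicate 2, at 0.884, then lay below a cpop1 library, replicate 3 at 0.936.

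**Figure D2:**
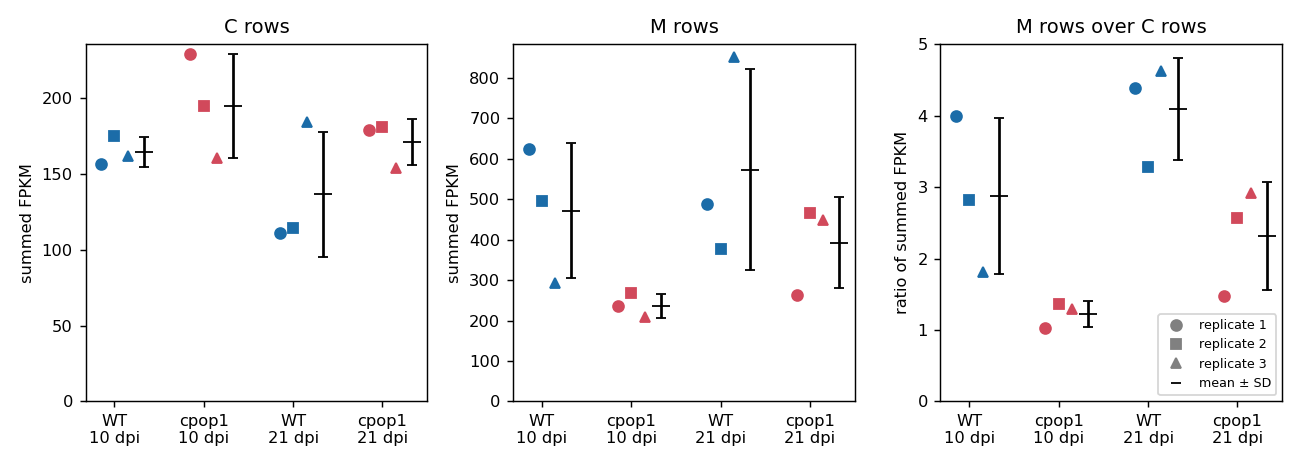
Summed FPKM of the 33 C rows (left) and 23 M rows (middle) and their ratio (right) in each of the 12 libraries, with bars for the group mean ± SD of 3 libraries. At 10 dpi the M sum was 294 to 625 FPKM in WT and 208 to 267 FPKM in cpop1, and the M to C ratio of every cpop1 library lay below that of every WT library of its age.

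LotjaGiM1v0003900 was the most abundant row of either letter. At 10 dpi it had 437.11, 335.39 and 170.51 FPKM in WT and 133.33, 151.31 and 112.46 FPKM in cpop1. In mature nodules it had 304.43, 236.39 and 528.15 FPKM in WT and 137.3, 253.26 and 239.68 FPKM in cpop1. The genotypes did not overlap at 10 dpi and overlapped at 21 dpi, where WT replicate 3 was far above the other 5 libraries. On the log2(FPKM + 1) scale the cpop1 difference was −1.15 ± 0.38 (SE) at 10 dpi, with a limma p adjusted over all tested rows of 0.0539, and −0.73 ± 0.38 at 21 dpi, with an adjusted p of 0.127. Neither passed the threshold of 0.05, and the 95% interval at 10 dpi ran from −2.0 to −0.30. Without WT 10 dpi replicate 3 the 10 dpi difference was −1.54 (adjusted p = 0.00194), and it also passed without WT 21 dpi replicate 3 (adjusted p = 0.0481). At 21 dpi it passed without WT 10 dpi replicate 3 (adjusted p = 0.0453) and was −0.40 without WT 21 dpi replicate 3. Leaving out WT 10 dpi replicate 3 called 63.9% of all tested rows at 10 dpi and 71.2% at 21 dpi.

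LotjaGiM1v0004400 followed a similar order. It had 163.67, 139.36 and 92.5 FPKM in WT and 69.04, 82.21 and 70.94 FPKM in cpop1 at 10 dpi. Its 21 dpi values were 147.92, 110.1 and 252.22 FPKM in WT and 90.19, 152.29 and 158.65 FPKM in cpop1. The genotypes did not overlap at 10 dpi, where the difference was −0.79 ± 0.32 (limma adjusted p = 0.0924). Without WT 10 dpi replicate 3 it was −1.02 and passed (adjusted p = 0.0143), as did 63.9% of all tested rows. At 21 dpi the difference was −0.30 ± 0.32 (adjusted p = 0.435) and changed sign to 0.02 without WT 21 dpi replicate 3. From 10 to 21 dpi the cpop1 libraries did not overlap, with a change of 0.80 ± 0.32 that did not pass (adjusted p = 0.0825). It passed, higher at 21 dpi, without WT 10 dpi replicate 3 (adjusted p = 0.0322, with 52% of all tested rows called), WT 21 dpi replicate 3 (adjusted p = 0.0494) or cpop1 21 dpi replicate 1 (adjusted p = 0.0483). It also passed after the shift of every library to a common median described below (adjusted p = 0.0400), with library weights (adjusted p = 0.0194) and with only the groups compared (adjusted p = 0.0223). In every other alternative fit it did not pass. Without any 1 of the other cpop1 libraries the limma adjusted p was 0.129 to 0.237, and with scaling to rows without C or M it was 0.161.

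The level of LotjaGiM1v0003900 relative to LotjaGiM1v0004400 varied less between libraries than either row. It was 2.67, 2.41 and 1.84 in WT and 1.93, 1.84 and 1.59 in cpop1 at 10 dpi, which overlap. At 21 dpi it was 2.06, 2.15 and 2.09 in WT (2.10 ± 0.0448, n = 3) and 1.52, 1.66 and 1.51 in cpop1 (1.57 ± 0.0848), with no overlap. WT 21 dpi replicate 3, which was the highest library for both rows, lay between its fellow replicates in this ratio. The ratio was computed after the values had been seen and was not tested.

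The third M row with a mean of at least 5 FPKM, LotjaGiM1v0004100, was far less abundant. It had 2.92, 2.29 and 4 FPKM in WT and 4.09, 5.37 and 3.49 FPKM in cpop1 at 10 dpi. The older nodules had 6.42, 5.19 and 14 FPKM in WT and 4.61, 8.24 and 7.22 FPKM in cpop1. The genotypes overlapped at both ages. LotjaGiM1v0003500 came next, with 10 dpi group means of 4.12 ± 2.69 FPKM in WT and 1.80 ± 0.855 in cpop1, and 6.40 ± 2.04 and 4.66 ± 0.925 FPKM at 21 dpi. The row of LotjaGiM1v0005500 had 1.81 ± 1.23 and 3.31 ± 0.418 FPKM at 10 dpi in WT and cpop1, and LotjaGiM1v0002400 had 1.25 ± 0.620 and 1.68 ± 1.11 FPKM. At 21 dpi these were 1.80 ± 0.833 and 2.98 ± 0.578 FPKM for LotjaGiM1v0005500, and 3.50 ± 1.67 and 3.30 ± 1.60 FPKM for LotjaGiM1v0002400. None of LotjaGiM1v0003500, LotjaGiM1v0005500 and LotjaGiM1v0002400 passed the threshold in any of the 5 comparisons.

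The most abundant C row, LotjaGiC1v0006500, parted the ages and not the genotypes. It had 72.41, 79.92 and 67.84 FPKM in WT and 86.36, 74.77 and 66.07 FPKM in cpop1 at 10 dpi. By 21 dpi it had 35.77, 39.18 and 35.91 FPKM in WT and 47, 37.1 and 37.99 FPKM in cpop1. All 6 libraries at 21 dpi were below all 6 at 10 dpi, and the genotypes overlapped at both ages. The genotype difference was 0.04 ± 0.13 at 10 dpi and 0.13 ± 0.13 at 21 dpi, and neither passed.

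Its neighbour by number, LotjaGiC1v0006400, had 39.11, 47.56 and 41.55 FPKM in WT and 77.17, 54.46 and 41.19 FPKM in cpop1 at 10 dpi. In the 21 dpi libraries it had 19.38, 25.95 and 19 FPKM in WT and 40.17, 15.34 and 17.87 FPKM in cpop1. Within each genotype every 21 dpi library was below every 10 dpi library, and cpop1 replicate 1 was the highest of its group at both ages. The genotype differences, 0.38 ± 0.33 at 10 dpi and 0.07 ± 0.33 at 21 dpi, did not pass.

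LotjaGiC1v0012100 ran the other way. It had 2.8, 2.6 and 11.96 FPKM in WT and 7.93, 14.75 and 12.73 FPKM in cpop1 at 10 dpi. The values at 21 dpi were 23.2, 15.82 and 67.15 FPKM in WT and 37.7, 61.18 and 44.1 FPKM in cpop1. The genotypes overlapped at both ages, each time through WT replicate 3, and the differences of 1.15 ± 0.57 (limma adjusted p = 0.151) and 0.66 ± 0.57 (adjusted p = 0.340) did not pass. At 10 dpi this row passed, higher in cpop1, without WT 10 dpi replicate 3, where 63.9% of all tested rows passed.

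**Figure D3:**
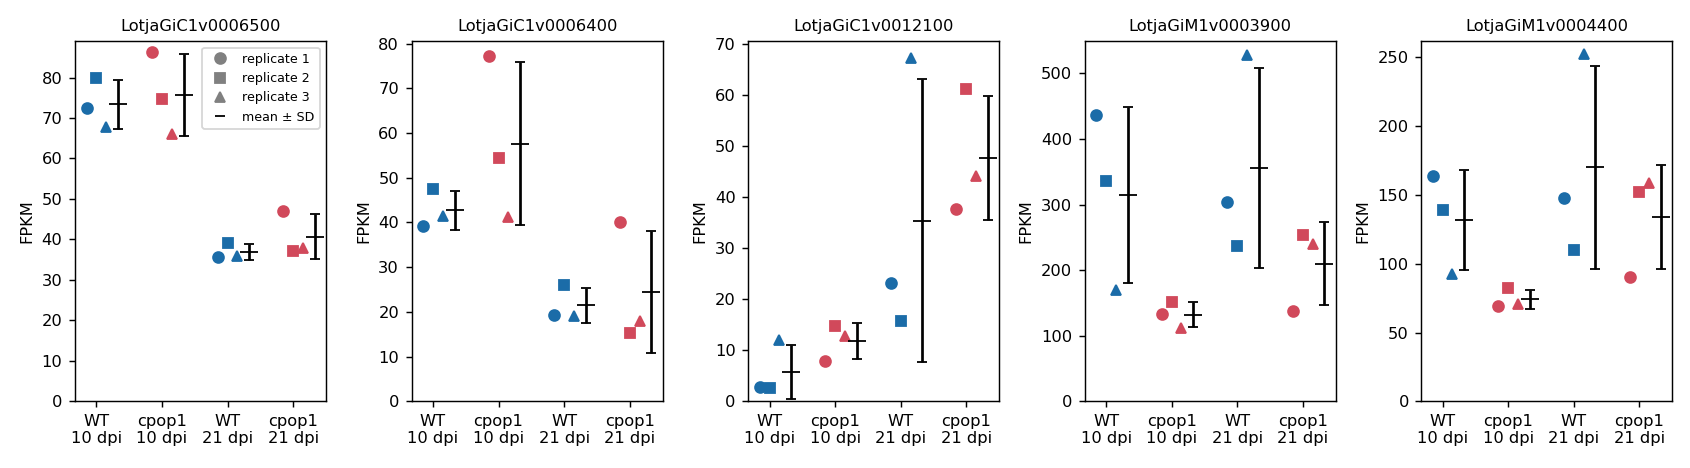
FPKM of the 3 most abundant C rows and the 2 most abundant M rows in each library, with bars for the group mean ± SD of 3 libraries. LotjaGiC1v0006500 lay between 66.07 and 86.36 FPKM at 10 dpi and between 35.77 and 47 FPKM at 21 dpi, and WT 21 dpi replicate 3 was the highest library for LotjaGiC1v0012100 and both M rows.

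The other C rows among the 8 most abundant lay at a few FPKM. LotjaGiC1v0008100 had 10 dpi group means of 3.98 ± 0.935 FPKM in WT and 2.82 ± 1.05 in cpop1, and 5.12 ± 1.87 and 4.24 ± 0.552 FPKM at 21 dpi. LotjaGiC1v0004100 had 3.37 ± 0.633 and 4.18 ± 2.195 FPKM at 10 dpi, and 2.09 ± 0.693 and 3.48 ± 0.618 FPKM at 21 dpi. For LotjaGiC1v0012400 the means were 2.32 ± 0.533 and 2.05 ± 0.635 FPKM at 10 dpi, and 4.24 ± 2.68 and 2.94 ± 0.678 FPKM at 21 dpi. LotjaGiC1v0008000 had 2.76 ± 0.318 and 1.91 ± 2.27 FPKM at 10 dpi, and 2.74 ± 1.83 and 2.97 ± 0.722 FPKM at 21 dpi. None of these 4 rows passed in any comparison. The steadiest of the low rows was LotjaGiC1v0011300, singled out after its values were seen, which stayed between 1.55 and 2.43 FPKM over all 12 libraries.

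In young nodules, 1 of 33 C rows and 0 of 23 M rows passed the threshold between cpop1 and WT. The limma test called 22.7% of all tested rows in this comparison (11.4% higher and 11.3% lower in cpop1), and 19.3% of the rows with a mean under 5 FPKM. At an unadjusted p under 0.05 there were 2 C rows and 3 M rows, against 40.6% of all tested rows. The called row, LotjaGiC1v0007500, had 0.82, 1.06 and 1.16 FPKM in WT and 3.03, 2.24 and 1.72 FPKM in cpop1, without overlap. It rose by 0.71 ± 0.22 on the log2(FPKM + 1) scale (limma adjusted p = 0.0392), a call lost without any 1 of 8 libraries, with adjusted p then from 0.0510 to 0.132. It has a mean under 5 FPKM and, like every other called row of that level below, was chosen after its values were seen.

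The libraries of the genotypes did not overlap at 10 dpi for 3 C rows, all higher in cpop1, and for 6 M rows, 3 higher and 3 lower, against 28.5% of tested rows (12.8% higher and 15.7% lower). The median log2 difference was 0.09 for C, 0.16 for M and 0.02 for all tested rows, and 26 of 33 C rows and 15 of 23 M rows had a positive difference. After a shift of every library to a common median, which moved the median of all rows to −0.06, 17 C rows and 13 M rows were positive. The share of all tested rows that were positive is not given here, so these counts are not read as a trait of C or M rows. Without WT 10 dpi replicate 3, 4 C rows passed, LotjaGiC1v0000500, LotjaGiC1v0000700, LotjaGiC1v0007500 and LotjaGiC1v0012100, all higher in cpop1, against 63.9% of all tested rows. Without that library 4 M rows passed too, LotjaGiM1v0003900 and LotjaGiM1v0004400 lower and LotjaGiM1v0000600 and LotjaGiM1v0005500 higher. No C row passed without WT replicate 1 or 2 or cpop1 replicate 1 or 2 at 10 dpi, nor without WT replicate 1 or any of the cpop1 libraries at 21 dpi. Without WT 21 dpi replicate 3, 1 M row passed, LotjaGiM1v0003900. For this fit and those without a C call, the share of all tested rows called is not given here. These counts are therefore not read as particular to C or M rows.

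In mature nodules, 5 of 33 C rows rose in cpop1 and none fell, while 0 of 23 M rows passed, and 3 M rows had an unadjusted limma p under 0.05, against 62.6% of all tested rows. The test called 57.6% of all tested rows in this comparison (29.2% higher and 28.4% lower in cpop1), and 46.9% of those with a mean under 5 FPKM. The 5 C rows were LotjaGiC1v0004200, LotjaGiC1v0007500, LotjaGiC1v0007600, LotjaGiC1v0007800 and LotjaGiC1v0007900. The first met the FPKM threshold only through the 3 cpop1 libraries at 21 dpi, which leaves 4 rows. These 4 carry neighbouring numbers, between which no other row of the table lies.

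LotjaGiC1v0007500 had 0.4, 0.24 and 0.98 FPKM in WT and 1.51, 2.08 and 2.27 FPKM in cpop1 at 21 dpi. LotjaGiC1v0007600 had 1.27, 1.26 and 1.03 FPKM in WT and 2.35, 2.35 and 4.42 FPKM in cpop1. For both rows every cpop1 library was above every WT library. LotjaGiC1v0007800 had 1.06, 1.32 and 2.16 FPKM in WT and 2.46, 6.02 and 3.26 FPKM in cpop1. LotjaGiC1v0007900 had 0.92, 0.61 and 1.25 FPKM in WT and 3.16, 3.8 and 2.19 FPKM in cpop1. These also did not overlap, and the highest cpop1 library was replicate 3 for the first pair of rows and replicate 2 for the second. The log2 changes were 0.96 ± 0.22 (limma adjusted p = 0.00347), 0.85 ± 0.29 (adjusted p = 0.0298), 0.93 ± 0.28 (adjusted p = 0.0173) and 1.07 ± 0.26 (adjusted p = 0.00568) in the order of their numbers. LotjaGiC1v0007500 and LotjaGiC1v0007900 kept the call in all 20 alternative fits. LotjaGiC1v0007600 kept it in 14 of 20, and LotjaGiC1v0007800 in 17 of 20. Without WT 21 dpi replicate 1 or replicate 2 both of these were lost, LotjaGiC1v0007600 also without WT 21 dpi replicate 3 (adjusted p = 0.0802) or cpop1 21 dpi replicate 3 (adjusted p = 0.119), and LotjaGiC1v0007800 also without cpop1 21 dpi replicate 2 (adjusted p = 0.0702). The LotjaGiC1v0007600 call was also lost after the shift to a common median (limma adjusted p = 0.0889) and with scaling to the rows without C or M.

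None of the rows on either side passed. On the lower side, LotjaGiC1v0007200, LotjaGiC1v0007300 and LotjaGiC1v0007400 stayed under the threshold of 1 FPKM in 3 libraries, and LotjaGiC1v0006900 had a difference of 0.32 that did not pass. On the upper side, LotjaGiC1v0008000 and LotjaGiC1v0008100 had differences of 0.18 and −0.19 that did not pass. Whether the run differs from its neighbours was not tested, and the spacing of the genes on the organelle genome is not known here.

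LotjaGiC1v0004200 had 0.1, 0.1 and 0.15 FPKM in WT and 1.35, 1.69 and 1.04 FPKM in cpop1 at 21 dpi, a log2 difference of 1.07 ± 0.17. It is a member only through its 3 cpop1 libraries at 21 dpi, so this difference is a description. At 10 dpi it had 0.66, 0.3 and 0.62 FPKM in WT and 0.83, 0.41 and 0.51 FPKM in cpop1, which overlap.

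At 21 dpi the genotypes did not overlap for 9 C rows, all higher in cpop1, and for 1 M row, LotjaGiM1v0001700, also higher, against 76.4% of tested rows (40.1% higher and 36.2% lower). The C rows include LotjaGiC1v0004200, a member through cpop1 libraries alone. The median difference was 0.33 for C, 0.18 for M and 0.05 for all tested rows, and 27 of 33 C rows and 13 of 23 M rows were positive. With every library shifted to a common median, which moved the median of all rows to −0.11, 24 C rows and 12 M rows were positive. The share of all tested rows that were positive is not given here, so these counts are not read as a trait of C or M rows. Without WT 21 dpi replicate 1 or without WT 21 dpi replicate 2, 3 C rows passed, and without WT 10 dpi replicate 3, 8 C rows and 5 M rows passed, against 71.2% of all tested rows. Without WT 21 dpi replicate 3, 4 M rows passed, all higher in cpop1, against 49.7% of all tested rows. Leaving out WT 10 dpi replicate 1, WT 21 dpi replicate 2 or cpop1 21 dpi replicate 1 or 3 gave 1 M row each. The share of all tested rows called is not given here for these fits or for the fit without WT 21 dpi replicate 1. Their counts are not read as particular to C or M rows.

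**Figure D4:**
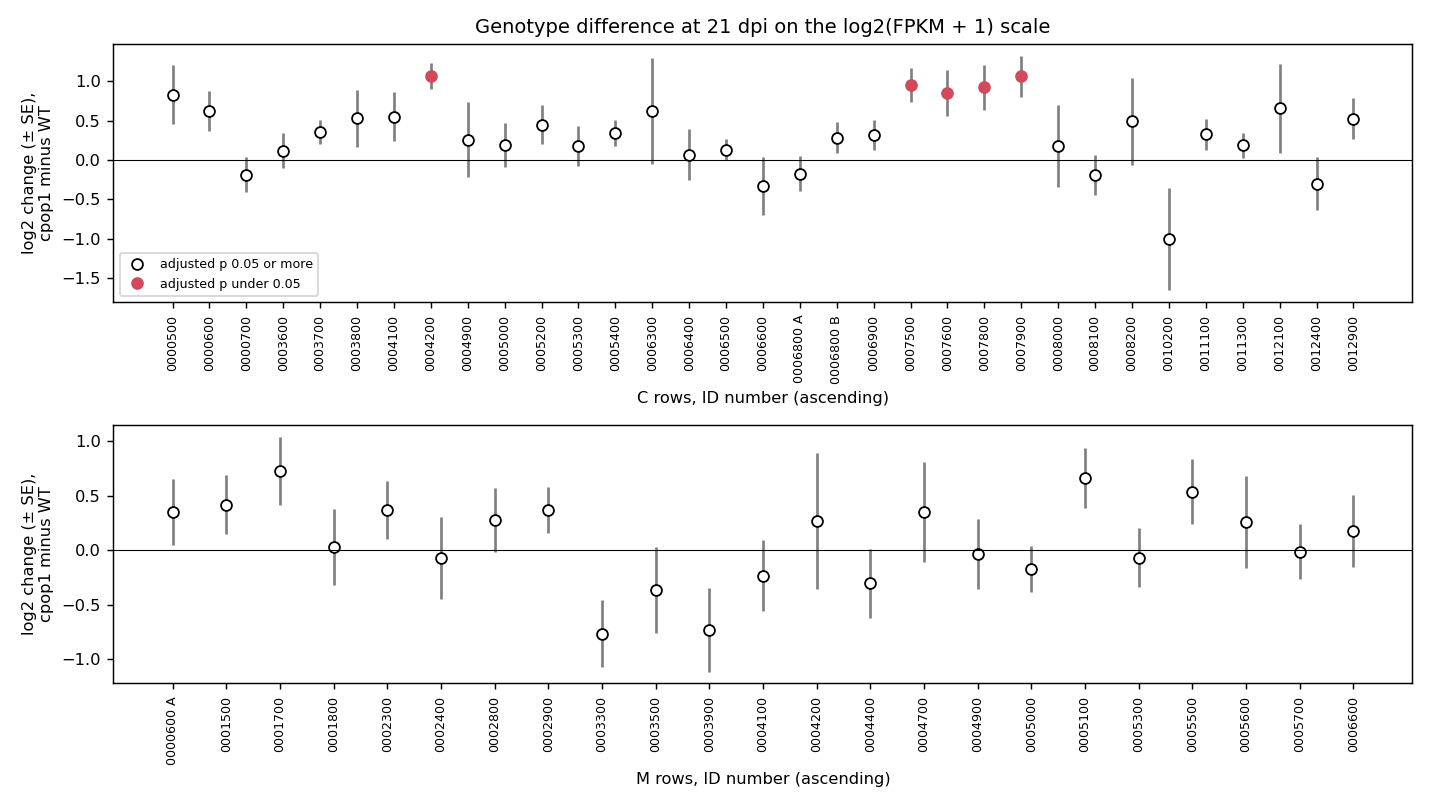
Difference between cpop1 and WT at 21 dpi on the log2(FPKM + 1) scale, ± SE from limma, for each C row (top) and M row (bottom) in the order of their identifier numbers, with filled points for rows that passed the adjusted threshold. The 5 filled C rows lie between 0.85 and 1.07, 4 of them side by side, and no M row is filled; LotjaGiC1v0004200 met the FPKM threshold only through the cpop1 libraries shown here.

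With age in WT nodules, 2 C rows rose and 3 fell, and 4 M rows rose and none fell, against 35.8% of all tested rows called in this comparison (11.3% higher and 24.4% lower at 21 dpi) and 33% of those with a mean under 5 FPKM. Without the rows that met the FPKM threshold at 1 age alone, 4 C rows and 2 M rows remain. LotjaGiC1v0006500 fell by 0.97 ± 0.13 (limma adjusted p = 0.000473), with the WT values given above. LotjaGiC1v0006400 fell by 0.97 ± 0.33 (adjusted p = 0.0397), and this call was lost without any 1 of WT 10 dpi replicates 1 and 2, the 3 WT 21 dpi libraries and cpop1 10 dpi replicate 2 (adjusted p from 0.0533 to 0.111), and after the shift to a common median. LotjaGiC1v0012100 rose by 2.43 ± 0.57 (adjusted p = 0.00815) and LotjaGiM1v0004100 by 1.14 ± 0.33 (adjusted p = 0.0212). The LotjaGiM1v0004100 call was lost without WT 21 dpi replicate 3 (adjusted p = 0.0662) or without WT 10 dpi replicate 2 (adjusted p = 0.0586).

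The remaining WT calls were low rows. LotjaGiC1v0012900 had 0.99, 1.49 and 0.5 FPKM at 10 dpi and was listed at 0 in the 3 WT libraries at 21 dpi (log2 change −0.96 ± 0.26), but it met the FPKM threshold only through 10 dpi libraries. Row A of LotjaGiC1v0006800 had 0.76, 1.02 and 1.7 FPKM at 10 dpi and 2.1, 2.01 and 2.98 FPKM at 21 dpi, a rise of 0.65 ± 0.22 (limma adjusted p = 0.0402) that held in 8 of 20 alternative fits and was lost without any 1 of 8 libraries, all 3 of WT at 21 dpi among them (adjusted p up to 0.135). Neither row's WT libraries overlapped between the ages. LotjaGiM1v0005000 had 1.07, 1.07 and 0.94 FPKM at 10 dpi and 1.98, 2.79 and 3.46 FPKM at 21 dpi, a rise of 0.87 ± 0.21 (adjusted p = 0.00984). LotjaGiM1v0002900 had 0.24, 0.24 and 0.37 FPKM and then 1.32, 0.48 and 1.58 FPKM (0.69 ± 0.21), and LotjaGiM1v0003300 had 0.15, 0.89 and 0.45 FPKM and then 2.19, 1.02 and 3.41 FPKM (1.06 ± 0.31); both met the FPKM threshold only at 21 dpi. In all 3 of these M rows every 21 dpi library was above every 10 dpi library, and the lowest of them at 21 dpi was replicate 2 in the last pair and replicate 1 in the first. LotjaGiM1v0005000 was the only M row that still passed without WT 21 dpi replicate 3, where 25.5% of all tested rows did.

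The WT ages did not overlap for 10 C rows, 3 higher and 7 lower at 21 dpi, and for 6 M rows, all higher, against 49.2% of tested rows (16.2% higher and 33% lower). The choice of members favours this for LotjaGiC1v0012900, admitted at 10 dpi alone, and LotjaGiM1v0002900 and LotjaGiM1v0003300, admitted at 21 dpi alone. The median log2 change was −0.05 for C, 0.56 for M and −0.23 for all tested rows, and 20 of 23 M rows and 16 of 33 C rows were positive, 6 of the M rows being members through 21 dpi alone. No share of positive rows among all tested rows is given beside these counts, and a difference from it was not tested. The shift to a common median moved the median of all rows to 0.13, turned that of C to 0.30 and set that of M at 0.91. Under it 12 M rows rose and none fell, and 5 C rows rose and 1 fell, against 35.9% of all tested rows called (22.8% higher and 13.1% lower). Of these M rows, LotjaGiM1v0002800, LotjaGiM1v0002900, LotjaGiM1v0003300, LotjaGiM1v0004900 and LotjaGiM1v0006600 met the FPKM threshold only at 21 dpi. The choice of members favours their rise. The number of C rows called was 3 without any 1 of the WT 21 dpi libraries, without WT 10 dpi replicate 1 and without cpop1 10 dpi replicate 2. The number of M rows called was 1 without WT 21 dpi replicate 3, and 2 without WT 10 dpi replicate 2 or without WT 21 dpi replicate 1. Among these fits the share of all tested rows called is given only without WT 21 dpi replicate 3, at 25.5%. The other counts are not read as particular to C or M rows.

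With age in cpop1 nodules, 3 C rows rose and 3 fell, and 4 M rows rose and 1 fell, against 29.5% of all tested rows called (8.03% higher and 21.5% lower at 21 dpi) and 26.1% of those with a mean under 5 FPKM. Without the rows that met the FPKM threshold at 1 age alone, 5 C rows and 3 M rows remain. LotjaGiC1v0006500 fell by 0.88 ± 0.13 (limma adjusted p = 0.000881) and LotjaGiC1v0006400 by 1.28 ± 0.33 (adjusted p = 0.0143), while LotjaGiC1v0012100 rose by 1.94 ± 0.57 (adjusted p = 0.0267). These 3 rows, and of the M rows LotjaGiM1v0005000, passed with age in both genotypes. LotjaGiM1v0002900 was also called in both, but it met the FPKM threshold only at 21 dpi, so the choice of members favours its rise. The LotjaGiC1v0012100 call was lost without any 1 of the 6 cpop1 libraries (adjusted p from 0.0510 to 0.0887), and that of LotjaGiC1v0006400 without cpop1 10 dpi replicate 1 or cpop1 21 dpi replicate 2 or 3 (0.0521 to 0.0600).

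LotjaGiC1v0000700 had 3.68, 2.76 and 2.42 FPKM in cpop1 at 10 dpi and 1.38, 1.11 and 0.55 FPKM at 21 dpi, and fell by 0.98 ± 0.22 (limma adjusted p = 0.00737), a call kept in all 20 alternative fits. Row B of LotjaGiC1v0006800 had 1.25, 1.11 and 0.53 FPKM at 10 dpi and 2.71, 2.52 and 1.7 FPKM at 21 dpi, a rise of 0.76 ± 0.20 (adjusted p = 0.0168) that was lost without cpop1 10 dpi replicate 3 or cpop1 21 dpi replicate 1 or 2 (adjusted p from 0.0604 to 0.0682). LotjaGiC1v0004200, a member through cpop1 at 21 dpi alone, differed by 0.58 ± 0.17. In all 3 rows the cpop1 libraries of the ages did not overlap.

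Among M rows, LotjaGiM1v0005000 had 0.95, 1.04 and 0.64 FPKM in cpop1 at 10 dpi and 1.5, 3.06 and 2.46 FPKM at 21 dpi, a rise of 0.81 ± 0.21 (limma adjusted p = 0.0157) that was lost without cpop1 10 dpi replicate 3 or cpop1 21 dpi replicate 2 or 3 (adjusted p from 0.0572 to 0.0663). LotjaGiM1v0002900, a member through 21 dpi alone, went from 0.5, 0.49 and 0.73 FPKM to 1.36, 1.6 and 2.11 FPKM (0.77 ± 0.21). LotjaGiM1v0001700 went from 1.83, 1.77 and 1.27 FPKM to 3.95, 4 and 6.04 FPKM (1.10 ± 0.31, adjusted p = 0.0233), a call lost without cpop1 10 dpi replicate 2 or 3 or cpop1 21 dpi replicate 3 (adjusted p from 0.0565 to 0.0925). In each of these the 3 older libraries were above the 3 younger ones. LotjaGiM1v0000600 fell from 5.32, 3.71 and 4.32 FPKM to 1.22, 2.41 and 1.65 FPKM (−0.99 ± 0.31, adjusted p = 0.0324), a call lost without any 1 of the 3 cpop1 10 dpi libraries or without cpop1 21 dpi replicate 1 or 3 (adjusted p from 0.0572 to 0.115). LotjaGiM1v0005100, a member through 21 dpi alone, was listed at 0 in the 3 cpop1 libraries at 10 dpi and had 1.59, 1.08 and 0.52 FPKM at 21 dpi (1.01 ± 0.28).

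The cpop1 ages did not overlap for 11 C rows, 7 higher and 4 lower at 21 dpi, and for 10 M rows, 9 higher and 1 lower, against 58.3% of tested rows (17.5% higher and 40.8% lower). The higher rows include LotjaGiC1v0004200, LotjaGiM1v0002800, LotjaGiM1v0002900, LotjaGiM1v0005100 and LotjaGiM1v0006600, which met the FPKM threshold only at 21 dpi, so the choice of members favours them. The median log2 change was 0.33 for C, 0.60 for M and −0.20 for all tested rows, and 23 of 33 C rows and 19 of 23 M rows were positive, with the same 6 M rows chosen through 21 dpi. No share of positive rows among all tested rows is given beside these counts, and a difference from it was not tested. Under the shift to a common median, with the median of all rows at 0.08, 7 C rows rose and 3 fell, and 9 M rows rose and none fell, against 27.1% of all tested rows called (15.2% higher and 11.9% lower). Of the rows that rose, LotjaGiC1v0004200, LotjaGiM1v0002800, LotjaGiM1v0002900, LotjaGiM1v0005100 and LotjaGiM1v0006600 met the FPKM threshold only at 21 dpi. The number of C rows called was 3 without cpop1 10 dpi replicate 3 or without cpop1 21 dpi replicate 1, 2 without cpop1 21 dpi replicate 2, and 10 without WT 10 dpi replicate 3. The number of M rows called was 1 without cpop1 10 dpi replicate 2 or 3, 2 without cpop1 21 dpi replicate 2 or 3, and 8 without WT 10 dpi replicate 3, where 52% of all tested rows were called. For the other fits that share is not given here, so their counts are not read as particular to C or M rows.

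**Figure D5:**
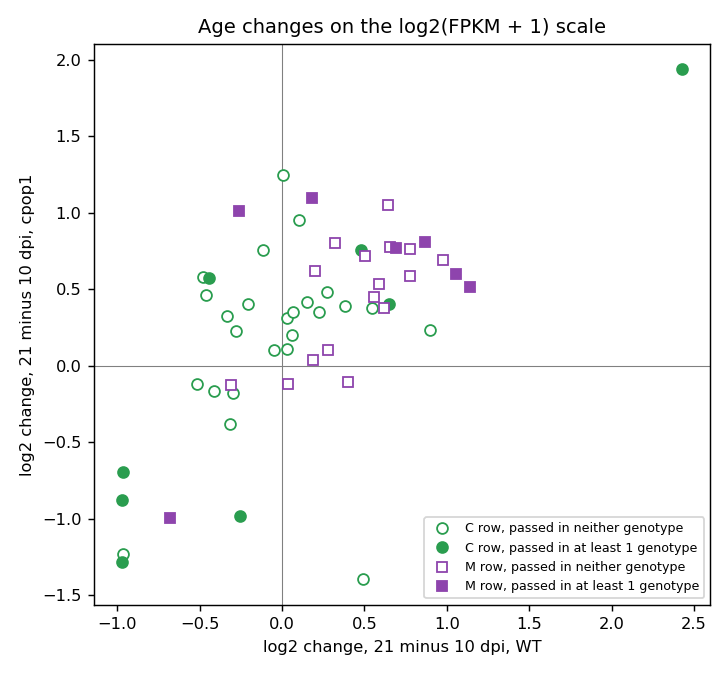
Change from 10 to 21 dpi on the log2(FPKM + 1) scale in WT (horizontal axis) and cpop1 (vertical axis) for each C row (circles) and M row (squares), with filled symbols for rows that passed the adjusted threshold in at least 1 genotype. LotjaGiC1v0012100 lies at 2.43 and 1.94, and LotjaGiC1v0006500 at −0.97 and −0.88. The points use different libraries on the 2 axes. Of the filled rows, LotjaGiC1v0004200, LotjaGiC1v0012900, LotjaGiM1v0002900, LotjaGiM1v0003300 and LotjaGiM1v0005100 met the FPKM threshold at 1 age alone.

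The genotype effect differed between the ages for 1 of 33 C rows and 1 of 23 M rows, against 20% of all tested rows called in this comparison (9.71% with a higher and 10.2% with a lower effect at 21 dpi) and 16.4% of those with a mean under 5 FPKM. Both rows were members through 21 dpi alone, so 0 rows remain without them, and both differences are descriptions. LotjaGiC1v0004200, whose values are given above, had an effect larger at 21 than at 10 dpi by 1.02 ± 0.24. For LotjaGiM1v0005100 the WT libraries had 0.52, 0.53 and 0.53 FPKM at 10 dpi and 0, 0 and 1.06 FPKM at 21 dpi, beside the cpop1 values given above, and the effect was larger at 21 dpi by 1.27 ± 0.39. All its values were whole multiples, from 0 to 3, of its lowest value above 0, 0.52 FPKM, with a tolerance of 6%, so it stands near the smallest amounts that these libraries register. Of the fits that leave out 1 library, 9 did not call it, and it was called without WT 10 dpi replicate 3, WT 21 dpi replicate 3 or cpop1 21 dpi replicate 3. Across the same fits the number of C rows called was 2 without WT 10 dpi replicate 1, WT 10 dpi replicate 3 or cpop1 10 dpi replicate 1. The share of all tested rows called in those fits is not given here. The median difference of effects was 0.21 for C, −0.06 for M and −0.01 for all tested rows. Over the 5 comparisons, 12 of 33 C rows and 7 of 23 M rows passed at least once, against 76.3% of all tested rows and 69.4% of those with a mean under 5 FPKM. These totals include LotjaGiC1v0004200, LotjaGiC1v0012900, LotjaGiM1v0002900, LotjaGiM1v0003300 and LotjaGiM1v0005100, called only where the choice of members favours a difference.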

How the data were processed

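The deposited table holds FPKM, 1 column per library, as the authors' file header names them, with 2 decimals. The submitters' processing notes list HISAT and Bowtie2 2.2.5 without saying what each did. The genome build, the annotation, the selection of RNA before sequencing, and the treatment of reads that match several places (organelle DNA copies in the nucleus, for example) were not found: not given in the sources used here. Read depth is unknown. Columns headed hemf2 were matched to the cpop1 samples by the labels' description field. None of the IDs matched the RefSeq table of assembly LjGifu_v1.2 (0 of 40429 rows), so lists by gene name could not be applied.

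Rows reaching 1 FPKM in 3 or more of the 12 libraries were tested, on log2(FPKM + 1), in a single limma 3.58.1 fit (R 4.3.3; 1 mean per group, eBayes with an intensity trend), with 5 contrasts and Benjamini-Hochberg adjustment over 22249 rows. A row was called at an adjusted p under 0.05. This scale understates changes of low rows, such as most C and M rows. The fit was also run on simulated data, with changes planted only in rows of a higher level than most C and M rows. That run does not show how the test behaves for low rows. Python 3.11.15, NumPy 2.4.6, pandas 2.3.3 and matplotlib 3.10.9 gave sums, counts and plots.

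The members and lists were chosen with earlier results of these data known. Named were the 8 rows of each letter with the highest means, up to 3 called rows in each direction and comparison whose highest group mean reached 5 FPKM, and the rows at the threshold. Alternatives were a pseudocount of 0.1, filtering at 5 FPKM or not at all, 3 scalings besides the deposited one, a replicate block, library weights, only the groups compared, and each library left out.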

Additional observations from a re-analysis of the deposited data

Results flagged for a closer look

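The genotype effect of LotjaGiC1v0004200 differed between the ages by 1.02 on the log2(FPKM + 1) scale in limma's test of that difference. The row met the FPKM threshold only through the 3 cpop1 libraries at 21 dpi, where it is high, so the choice of members favours this difference and neither its test nor its recurrence across fits is support for it. LotjaGiM1v0005100 differed by 1.27 in the same test and passed in 8 of 19 alternative fits. It met the FPKM threshold only through 3 libraries at 21 dpi and was listed at 0 in 5 of 12 libraries, so its difference is not free of the choice of members either.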

How the results depend on the processing

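Of 649 values for 32 row results under alternative settings, 535 kept their direction and their side of the threshold, 105 lost the call, 8 gained it and 1 changed sign: LotjaGiM1v0004400 at 21 dpi (cpop1 against WT), at 0.0228 without WT 21 dpi replicate 3, in a leave-one-out range of −0.57 to 0.0228. The cause was not tested. Counts of called rows follow in the order 10 dpi, 21 dpi, WT age, cpop1 age and difference of effects, first C (1, 5, 5, 6 and 1), then M (0, 0, 4, 5 and 1). With a filter at 5 FPKM, which leaves 3 C and 4 M rows to test, C gave 0, 0, 3, 3 and 0, and M 1 in WT age, 0 in cpop1 age and 0 for the difference. With library weights C gave 16, 10, 15, 20 and 9, and M 14, 5, 11, 12 and 2. The share of all tested rows called with these weights is not given here, so these counts are not read as particular to C or M rows. The shift to a common median gave C 0 at 10 dpi, 10 in cpop1 age and 2 for the difference, and M 1 at 21 dpi, 12 in WT age, 9 in cpop1 age and 0 for the difference. In fits to only the groups compared C gave 0, 9 and 3 in the first 3, and M 1 at 21 dpi, 1 in WT age and 9 in cpop1 age; the difference of effects needs all 4 groups and could not be fitted so. A pseudocount of 0.1 gave 0 C rows at 10 dpi and 1 M row at 21 dpi. Without the 20 most abundant rows, C gave 2 for the difference and M 2 at 21 dpi. Scaling to rows without C or M gave 1 M row at 10 dpi and 1 at 21 dpi. With the replicate block, C gave 0 at 10 dpi, and M 2 at 21 dpi and 0 for the difference. Whether the replicate numbers pair the libraries cannot be decided from these values. Correlations of same-numbered deviations ran from −0.0756 to 0.270, and some libraries, but not all, correlated best with their own number. Leaving out each library gave C counts of 0 to 4, 3 to 8, 3 to 5, 2 to 10 and 1 to 2, and M counts of 0 to 4, 0 to 5, 1 to 5, 1 to 8 and 0 to 1. The log2 ratios of summed C FPKM then ran from 0.11 to 0.37, 0.20 to 0.60, −0.54 to −0.14, −0.31 to −0.05 and −0.04 to 0.36. Those of summed M FPKM ran from −1.24 to −0.74, −0.77 to −0.14, −0.12 to 0.54, 0.59 to 0.95 and 0.19 to 0.85. Without its most abundant row, the summed C change with age was 0.13 in cpop1 in place of −0.18, and 0.13 in WT in place of −0.27; the shift to a common median turned both as well, to 0.09 and 0.07, so the direction of the summed C change with age is not settled. Without the 2 most abundant M and 3 most abundant C rows, the log2 M to C ratio at 10 dpi was 0.04 in place of −1.22, an alternative chosen after seeing the data. The read depth behind the 50 rows of mean under 5 FPKM is unknown, which limits what their tests can show.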

Other observations

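A few low C rows took only a handful of values. LotjaGiC1v0012900 was at 0 in 4 libraries, and its other 8 values were whole multiples, up to 3, of 0.5 FPKM with a tolerance of 6%. LotjaGiC1v0010200 was at 0 in 7 libraries, the 3 cpop1 libraries at 21 dpi among them, and its other 5 values were likewise multiples of 1.83 FPKM.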
